A study of Mus musculus with 12 samples.

Results

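EHP-101 and losartan were compared together with Ang II alone in hearts of mice infused with Ang II (angiotensin II). The question was which effects on cardiac gene expression the 2 treatments shared. The comparison used 9 of the 12 heart libraries of the study: 3 from mice given Ang II, 3 from mice given Ang II and EHP-101, and 3 from mice given Ang II and losartan. They were chosen by their group labels, and each treatment group had equal weight, so the pooled value is the average of the 2 treatment means minus the Ang II mean. All 9 came from male C57BL/6 mice, 8 weeks old, with osmotic pumps under the skin that delivered Ang II for 28 days, so the infusion is common to every group compared. During the last 2 weeks the treated animals received oral EHP-101 at 20 mg/kg or losartan in the drinking water at 0.6 g/L, and the others vehicle. The remaining 3 libraries are labelled control, with titles that add Ang II control, and the design text gives saline pumps for mice without Ang II. They entered the estimate of the spread between libraries, and are quoted only as a reference level. The labels name the tissue as heart without naming a chamber, and they do not say whether replicates came from separate animals, so p-values measure the spread between these samples.

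Ang II, the effector peptide of the renin-angiotensin system, acts on the heart and vessels mainly through the AT1 receptor. Sustained infusion raises blood pressure and brings leukocytes, fibroblast activation and matrix deposition to the heart. Losartan blocks the AT1 receptor. EHP-101 is an oral agent described as acting on PPARγ, a nuclear receptor, and on CB2, a receptor for cannabinoids, both of which are known for restraining inflammation. MHC class II molecules, described first below, present peptides to CD4+ T cells and are carried by dendritic cells, B cells and some macrophages.

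The libraries held 22574756 to 24040516 counted reads in the 9 libraries, of which mitochondrial transcripts took 17.7% to 20.0% with Ang II and 18.9% to 25.4% in the 6 treated libraries. After removal of genes with few reads, 15336 of 47729 genes were tested. Heart muscle genes were high in each: the summed level of 19 ventricular and general cardiomyocyte markers was 73795 to 89214 CPM with Ang II, 83617 to 100002 with EHP-101 and 82701 to 96514 with losartan. CPM stands for counts scaled by TMM to a common library size. Control replicate 2 stood apart from the other 11 libraries on the first principal component. Ang II replicate 3 was the highest of its group for the class II, macrophage, cytokine and cell cycle lists, EHP-101 replicate 2 was high for glucocorticoid-responsive genes, and atrial markers varied widely within groups.

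Across all tested genes, 0 (0%) were called for the pooled comparison at an adjusted p under 0.05 by edgeR's quasi-likelihood test, where the smallest adjusted p was 0.168 and was shared by 9 genes. At an unadjusted p under 0.05 there were 1409 genes (9.19%), 1111 of them lower with treatment (7.24%) and 298 higher (1.94%). Without Ang II replicate 3 these counts were 481 lower (3.09%) and 90 higher (0.579%), and without Ang II replicate 1 they were 632 and 121. The higher count alone was also 784 without control replicate 2 and 189 without losartan replicate 1. With any 1 library left out, the lower share of all genes ran from 3.09% to 9.37% and the higher share from 0.579% to 5.02%. Counts of list members in those settings are to be read beside these shares. In 500 genes (3.26%) all 6 treated libraries lay below all 3 Ang II libraries, and in 266 (1.73%) they lay above. DESeq2 called 81 genes lower (0.51% of those it gave an adjusted p) and 5 higher (0.0315%), and limma-voom called 0 (0%). The 5 higher genes were Ogdhl, Tmem179, Tef, Ciart and Gm4076, the last named after its values were seen.

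Each treatment was also set against Ang II by itself. The 2 comparisons share the 3 Ang II libraries, so their values are given side by side. EHP-101 against Ang II had 0 genes (0%) at an adjusted p under 0.05 in edgeR, with 784 lower (5.11%) and 324 higher (2.11%) at an unadjusted p under 0.05, and DESeq2 called 51 lower (0.31%) and 9 higher (0.0548%). Losartan against Ang II had 0 (0%) in edgeR, with 942 lower (6.14%) and 347 higher (2.26%) unadjusted, and DESeq2 called 103 lower (0.697%) and 5 higher (0.0339%). Both treatments had an unadjusted p under 0.05 on the lower side in 273 genes (1.78%) and on the higher side in 49 (0.32%). When the larger of the 2 p-values was adjusted over all genes, 0 (0%) remained in edgeR.

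Genes of MHC class II antigen presentation were lower in both treated groups. All 13 tested members of a list of 14 had a lower mean with treatment and an unadjusted p under 0.05, with a median log2 fold change of -0.88, against 7.24% and a median of 0.0 over all tested genes. The median was -1.15 with EHP-101 and -0.65 with losartan. All 13 were lower at an unadjusted p under 0.05 with EHP-101 alone and 8 with losartan alone, against 5.11% and 6.14% of all genes. In 5 all 6 treated libraries lay below all 3 Ang II libraries (3.26% of all genes). DESeq2 called 6 of the 13 (0.51% of all genes called lower). The summed level of the list was 313 to 499 CPM with Ang II, 172 to 185 with EHP-101, 208 to 248 with losartan and 189 to 296 in control hearts. Without Ang II replicate 3, the highest library, 8 of 13 had an unadjusted p under 0.05, against 3.09% of all genes, and the median was -0.68.

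H2-Ab1 encodes the beta chain of the class II molecule I-A (chr17:34257689-34269419, GRCm38). It stood at 43.5, 42.4 and 65 CPM with Ang II alone, 22.8, 22.5 and 25.2 CPM with EHP-101 and 30.0, 32.1 and 29.8 CPM with losartan. Each treated library lay below each Ang II library, and EHP-101 was lower than losartan throughout. The pooled log2 fold change was -0.91 ± 0.15 (SE), 1.88-fold lower, with an unadjusted p of 4.25e-05 and an adjusted p of 0.168 in edgeR. DESeq2 gave an adjusted p of 6.82e-04. H2-Eb1, the beta chain of I-E (chr17:34305867-34316674), read 48.6, 46.2 and 75.1 CPM with Ang II alone, 25.6, 24.4 and 28.5 CPM with EHP-101 and 33.3, 35.3 and 31.2 CPM with losartan, a log2 fold change of -0.94 ± 0.16 (edgeR adjusted p = 0.168). H2-Aa, the alpha chain of I-A (chr17:34282744-34287823), read 66.1, 66.1 and 108 CPM with Ang II alone, 37.2, 34.5 and 35.7 CPM with EHP-101 and 54.6, 47.2 and 39.6 CPM with losartan, a log2 fold change of -0.96 ± 0.18 (edgeR adjusted p = 0.194). Cd74, the invariant chain that escorts class II molecules to the peptide loading compartment, read 109.8, 113 and 163 CPM with Ang II alone, 62.3, 55.7 and 58.5 CPM with EHP-101 and 83.5, 89.7 and 77.8 CPM with losartan, a log2 fold change of -0.88 ± 0.16. For these 4 genes the treated libraries did not overlap the Ang II libraries, and those given EHP-101 were below those given losartan. The difference, EHP-101 minus losartan, was -0.51 with a 95% interval of -0.92 to -0.091 for Cd74 and -0.38 with a 95% interval of -0.77 to 0.0 for H2-Ab1 on the log2 scale. Its adjusted p in edgeR was 0.744 and 0.818.

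Class II promoters are known for a conserved block of short elements just upstream of the start, one of which, the Y box, is an inverted CCAAT. The 150 bases before the RefSeq start of 2 of these genes are shown because the class II genes were low together in both treated groups, with CCAAT and its reverse, ATTGG, in capitals (RefSeq, GRCm38.p6, each 5′ to 3′ on the gene's strand, H2-Aa chr17:34287824-34287973 minus, H2-Eb1 chr17:34305717-34305866 plus).
H2-Aa: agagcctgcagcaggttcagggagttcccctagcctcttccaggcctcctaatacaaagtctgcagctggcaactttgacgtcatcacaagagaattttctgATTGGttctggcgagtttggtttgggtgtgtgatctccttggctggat
H2-Eb1: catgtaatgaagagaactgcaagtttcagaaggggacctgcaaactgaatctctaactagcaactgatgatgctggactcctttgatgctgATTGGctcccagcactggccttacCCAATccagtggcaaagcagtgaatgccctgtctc
H2-Aa held 1 such match in this window and H2-Eb1 2. Over the 250 bases before the start, CCAAT on either strand was found in 8 of 12 windows of 11 class II genes that matched the RefSeq table (66.7%) and in 33.8% of all 32851 windows. A match describes the letters and does not show a bound factor.

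**Figure D1:**
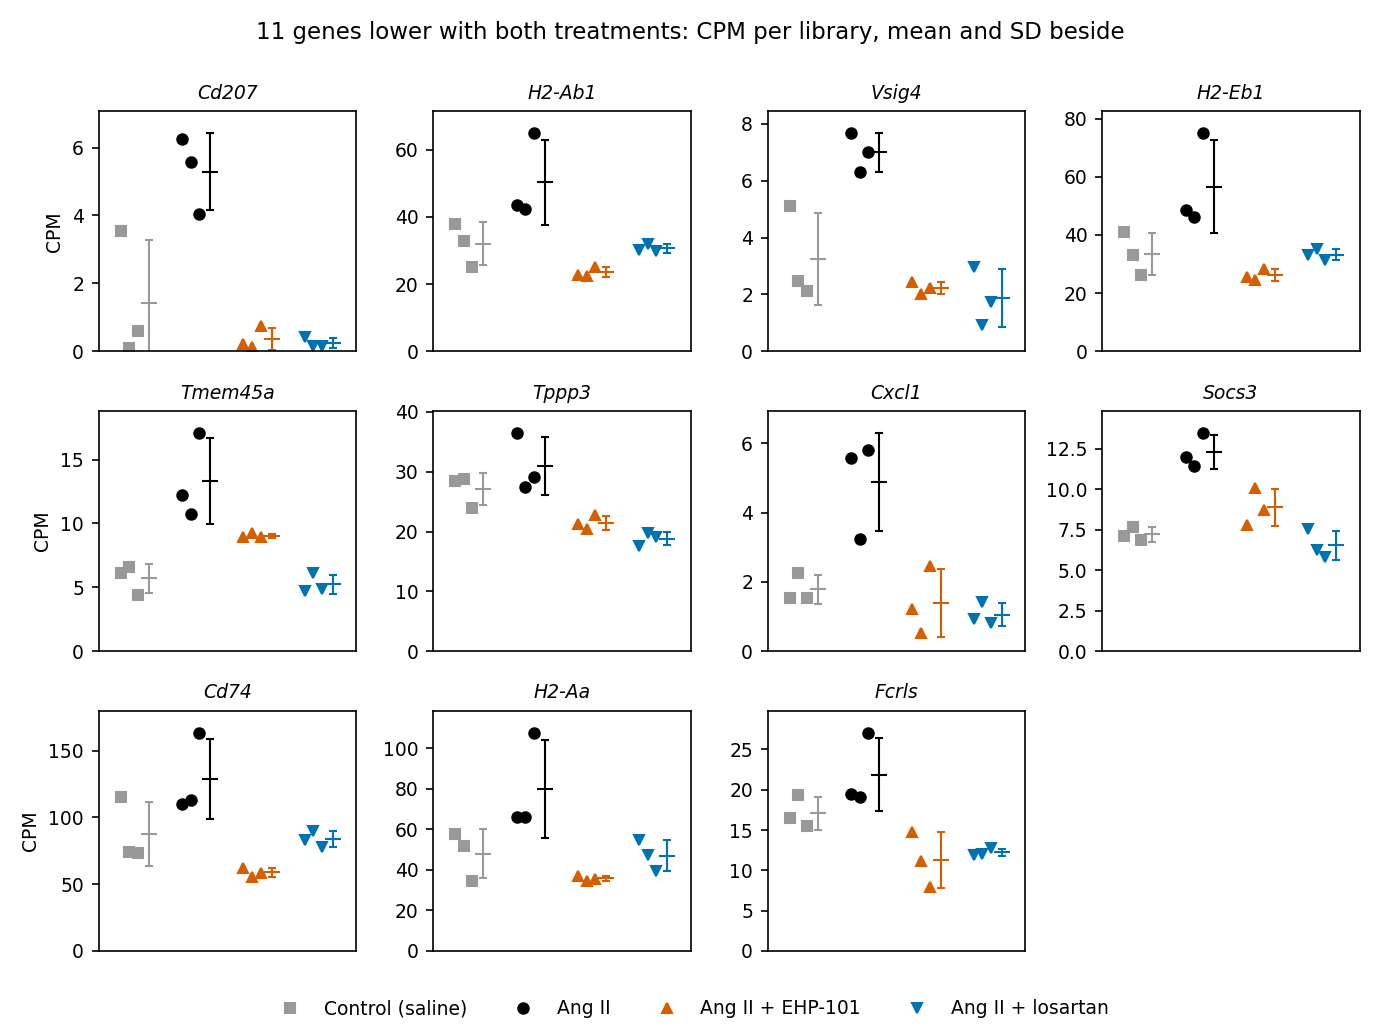
CPM of 11 of the 12 genes with the smallest unadjusted p among those lower in both treated groups, one panel per gene with a linear axis from 0. Points are libraries, and the bar beside each group is its mean ± SD (n = 3), cut at 0 where it would go below. In every panel the 6 treated libraries lie below the 3 Ang II libraries, a property used to choose the genes.

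The gene with the largest fold among these 11 was Cd207, which encodes langerin, a lectin of Langerhans cells and some dendritic cells (chr6:83671215-83677857). It stood at 6.27, 5.57 and 4.05 CPM with Ang II alone, 0.211, 0.14 and 0.744 CPM with EHP-101 and 0.418, 0.167 and 0.169 CPM with losartan, while the control libraries read 3.55, 0.108 and 0.584 CPM. Ang II libraries were high, all 6 treated libraries stood at or below 0.744 CPM, and control replicate 1 lay just under the Ang II range. The log2 fold change was -4.11 ± 0.67, with an unadjusted p of 4.03e-05 and an adjusted p of 0.168 in edgeR. It was -3.83 with EHP-101 and -4.39 with losartan, a difference of 0.56 with a 95% interval of -1.81 to 2.93. Cd207 was the 1 gene that edgeR called when the control group was left out of the fit (adjusted p = 0.0043) or control replicate 1 was left out (adjusted p = 0.0095). Over all settings its adjusted p ran from 0.0043 to 1.0.

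Many markers of macrophages and monocytes were lower as well. Of 28 tested, 16 were lower at an unadjusted p under 0.05, against 7.24% of all genes, and 0 higher. The median log2 fold change was -0.56, -0.60 with EHP-101 and -0.56 with losartan. Both treatments passed the unadjusted threshold by themselves in 6, against 1.78% of all genes. Without Ang II replicate 3 the 16 became 6, against 3.09% of all genes. In bulk tissue, fewer cells of a type and less RNA per cell cannot be told apart.

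Vsig4, a complement receptor of tissue macrophages (chrX:96247203-96293438), stood at 7.67, 6.31 and 7.01 CPM with Ang II alone, 2.45, 2.01 and 2.23 CPM with EHP-101 and 2.97, 0.92 and 1.73 CPM with losartan. Ang II libraries lay well above the others, and the 2 treated groups overlapped. Its log2 fold change was -1.78 ± 0.30, 3.42-fold lower (edgeR adjusted p = 0.168). Ccr2, the receptor by which inflammatory monocytes follow CCL2, read 16.9, 12.3 and 28.9 CPM with Ang II alone, 8.67, 3.97 and 6.44 CPM with EHP-101 and 13.2, 9.16 and 6.92 CPM with losartan. Losartan replicate 1 reached above Ang II replicate 2, so the groups overlapped, and the log2 fold change was -1.30 ± 0.30, or -0.89 without Ang II replicate 3. Fcgr1, the high-affinity IgG receptor, had a log2 fold change of -0.98 ± 0.23. Adgre1, which encodes the macrophage marker F4/80, had -0.78 ± 0.21, Plac8, a gene of monocytes and other leukocytes, -1.87 ± 0.43 (-1.09 without Ang II replicate 3), and Fcrls, a macrophage and microglia marker, -0.90 ± 0.17. For these last 4, edgeR's adjusted p ran from 0.194 to 0.291.

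Inflammatory cytokines and chemokines formed a list of 26, of which 24 were tested. Of these, 16 were lower at an unadjusted p under 0.05, against 7.24% of all genes, and 0 higher, with a median of -1.06. DESeq2 called 7 (0.51% of all genes called lower), and in 7 all 6 treated libraries lay below all 3 Ang II libraries (3.26% of all genes). Both treatments passed the unadjusted threshold in 8 (1.78% of all genes). Without Ang II replicate 3 the count was 9, against 3.09% of all genes, and the median -0.64. Cxcl1, a chemokine that attracts neutrophils (chr5:90891241-90893115), stood at 5.58, 3.24 and 5.81 CPM with Ang II alone, 1.23, 0.514 and 2.45 CPM with EHP-101 and 0.93, 1.42 and 0.801 CPM with losartan. The groups did not overlap, and the log2 fold change was -2.0 ± 0.35, 4.0-fold lower (edgeR adjusted p = 0.168). Cxcl13, a chemokine that attracts B cells, read 3.11, 1.95 and 2.62 CPM with Ang II alone, 0.169, 0.468 and 0.219 CPM with EHP-101 and 0.604, 0.293 and 0 CPM with losartan, a log2 fold change of -3.14 ± 0.61. Cxcl10, an interferon-induced chemokine of T cells, had a log2 fold change of -1.79 ± 0.39 at levels of at most 2.51 CPM.

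The inflammatory cytokines Il1b and Il6 rested more on 1 library. Il1b read 4.75, 1.66 and 8.81 CPM with Ang II alone, 1.06, 0.701 and 0.744 CPM with EHP-101 and 2.37, 1.17 and 0.548 CPM with losartan, a log2 fold change of -2.25 ± 0.49, and -1.59 without Ang II replicate 3. Il6 read 0.721, 0.665 and 5.28 CPM with Ang II alone, 0.381, 0.187 and 0.744 CPM with EHP-101 and 0.465, 0.209 and 0.253 CPM with losartan. Ang II replicate 3 was far above the other libraries, and the log2 fold change of -2.59 ± 0.62 became -0.91 without it. In the list of IL6 family and STAT3 response genes, 7 of 18 were lower at an unadjusted p under 0.05 (7.24% of all genes), with a median of -0.096. The count was 3 without Ang II replicate 3 (3.09% of all genes) and 2 with a score of atrial markers as a covariate (4.32%). With a library left out the median ran from -0.0068 without Ang II replicate 3 to -0.25 without losartan replicate 1. Socs3, the feedback inhibitor that STAT3 induces, stood at 12, 11.4 and 13.5 CPM with Ang II alone, 7.82, 10.1 and 8.76 CPM with EHP-101 and 7.53, 6.27 and 5.82 CPM with losartan. It was lower in every treated library than in every Ang II library, and lowest with losartan. The log2 fold change was -0.69 ± 0.12 (edgeR adjusted p = 0.168), and EHP-101 minus losartan was 0.44 with a 95% interval of 0.12 to 0.77. Fgl2, a secreted fibrinogen-like protein of leukocytes, had -0.51 ± 0.14, and Pim1, a kinase induced by cytokines, -0.39 ± 0.13.

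Other leukocyte lists held fewer lower genes, or genes at low counts. Of 20 interferon-stimulated genes, 6 were lower at an unadjusted p under 0.05 (7.24% of all genes), with a median of -0.31. The count was 3 without Ang II replicate 3 (3.09% of all genes), 12 without control replicate 2 (9.37%) and 11 without EHP-101 replicate 3 (7.86%). Mx1, an antiviral GTPase, stood at 2.85, 2.91 and 3.04 CPM with Ang II alone, 1.48, 1.36 and 1.36 CPM with EHP-101 and 1.30, 2.05 and 1.39 CPM with losartan, with no overlap and a log2 fold change of -0.98 ± 0.22. Zbp1, a sensor of nucleic acids, had a log2 fold change of -0.94 ± 0.24, and -0.58 without Ang II replicate 3. Of 7 tested mast cell markers 3 were lower at an unadjusted p under 0.05, all of them proteases: Cpa3 had a log2 fold change of -1.18 ± 0.27, Mcpt4 -1.06 ± 0.29 (-0.65 without Ang II replicate 3) and Tpsb2 -1.06 ± 0.30, at levels of at most 3.37 CPM. The list's median of -0.66 was -0.33 without that library. Each of the 3 also passed the unadjusted threshold in each treatment alone (1.78% of all genes).

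Lymphocyte markers were sparse. Among 10 B cell markers, 3 were lower at an unadjusted p under 0.05. By log2 fold change these were Pax5, the B cell master regulator (-0.99 ± 0.33), Cd22 (-0.95 ± 0.33) and Ms4a1 (-0.81 ± 0.32), both surface proteins of B cells. The median was -0.69, -1.08 with EHP-101 and -0.26 with losartan, and 5 members were lower with EHP-101 than with losartan at an unadjusted p under 0.05 (2.97% of all genes). The highest pooled value of a member was 0.67. With EHP-101 alone 6 were lower (5.11% of all genes). With losartan alone 0 were lower and 1 higher (6.14% and 2.26%). The summed level was 30.4 to 42.8 CPM with Ang II, 11.5 to 23.7 with EHP-101 and 21.9 to 51.1 with losartan. The count of 3 was 1 without Ang II replicate 1, 5 without EHP-101 replicate 1 or 3, and 6 without losartan replicate 2. With the atrial covariate 0 were lower and 1 higher. Of 7 tested T and NK cell markers 1 was lower, Trac, the constant region of the T cell receptor alpha chain (-0.78 ± 0.34, and -0.10 with the atrial covariate). The share of all genes that were lower was 7.24%.

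**Figure D2:**
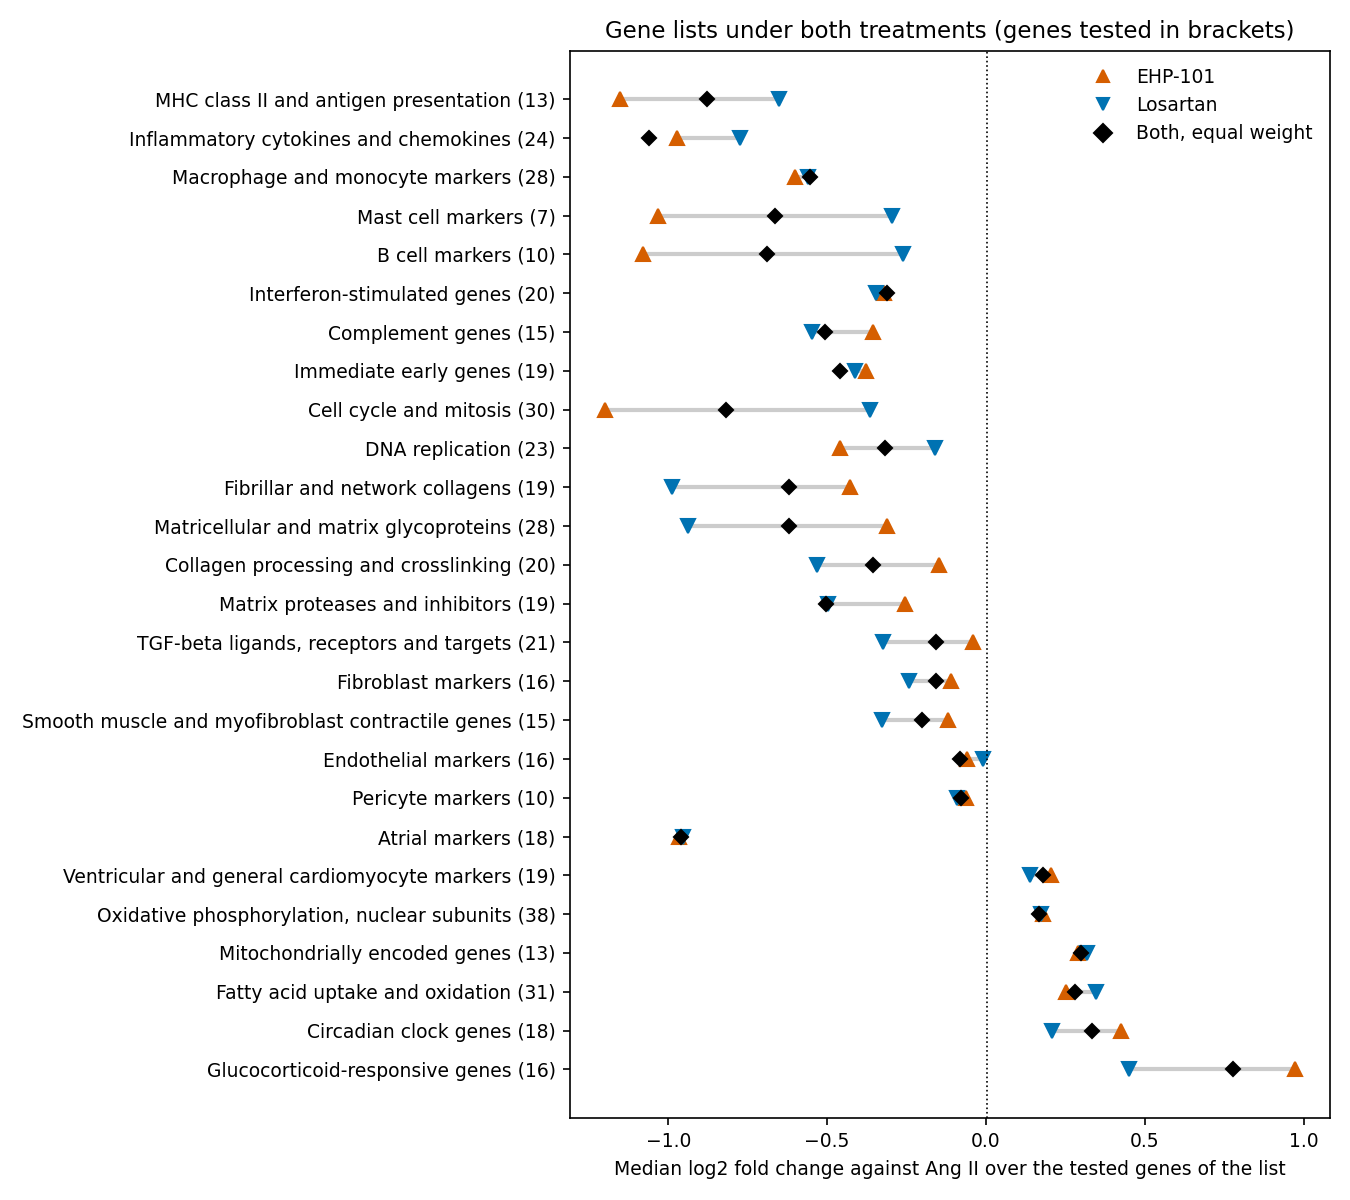
Median log2 fold change against Ang II over the tested genes of 26 lists, with EHP-101, losartan and both with equal weight as separate symbols, and the median of all tested genes as a dotted line. A pooled median need not lie between those of the 2 treatments. The cytokine, atrial, class II and cell cycle lists have the lowest pooled medians among those named in the text, cell cycle genes lie further left with EHP-101, collagens and matricellular genes further left with losartan.

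Immediate early genes, transcription factors that cells switch on within minutes of a stimulus, were lower in part. Of 19, 8 were lower at an unadjusted p under 0.05 (7.24% of all genes), with a median of -0.46. DESeq2 called 3 (0.51% of all genes called lower). Junb, a subunit of AP-1, stood at 43.2, 28.9 and 32.6 CPM with Ang II alone, 16.1, 9.91 and 23.8 CPM with EHP-101 and 16.2, 17.4 and 11 CPM with losartan. The groups did not overlap, and the log2 fold change was -1.15 ± 0.25 (edgeR adjusted p = 0.22). It was -1.07 with EHP-101 and -1.23 with losartan, a difference of 0.16 with a 95% interval of -0.50 to 0.82. Fos, its partner, read 73.7, 15.4 and 25.5 CPM with Ang II alone, 11, 5.28 and 14.3 CPM with EHP-101 and 6.79, 14.4 and 6.83 CPM with losartan, and Fosb 12.5, 1.70 and 1.72 CPM with Ang II alone, 0.592, 1.12 and 1.14 CPM with EHP-101 and 0.837, 2.26 and 0.801 CPM with losartan. Ang II replicate 1 was far above the rest for both. Their log2 fold changes of -1.97 and -2.25 became -1.06 and -0.62 without it, and the list's count 4.

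Genes of cell division were lower in the pooled comparison, with the lower values in the EHP-101 group. Of 30 tested, 17 were lower in the pooled comparison at an unadjusted p under 0.05 (7.24% of all genes), with a median of -0.82. The median was -1.20 with EHP-101, where 25 passed the unadjusted threshold (5.11% of all genes), and -0.37 with losartan, where 0 did (6.14%). EHP-101 was lower than losartan at an unadjusted p under 0.05 in 11 of 30, against 2.97% of all genes. In 0 of 30 did both treatments pass the threshold by themselves. The summed level was 86.9 to 131 CPM with Ang II, 43.4 to 56.9 with EHP-101, 81.2 to 105 with losartan and 79.9 to 128 in control hearts. Without Ang II replicate 3, 0 of 30 were lower at an unadjusted p under 0.05 in the pooled comparison, against 3.09% of all genes, and the median was -0.53. The count was 8 without EHP-101 replicate 1 (6.05% of all genes) and 9 without losartan replicate 1 (6.15%).

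Top2a, the topoisomerase that separates replicated DNA, stood at 6.99, 7.14 and 13.8 CPM with Ang II alone, 1.02, 3.65 and 3.41 CPM with EHP-101 and 6.18, 6.69 and 8.31 CPM with losartan. The EHP-101 libraries lay below all others, and losartan libraries overlapped those given Ang II. The pooled log2 fold change was -1.10 ± 0.34 (edgeR adjusted p = 0.362), -1.80 with EHP-101 and -0.40 with losartan, a difference of -1.40 with a 95% interval of -2.31 to -0.48. Without Ang II replicate 3 the pooled value was -0.70. Kif20a, a mitotic kinesin, had a pooled log2 fold change of -0.76 ± 0.23, Ndc80, part of the kinetochore, -0.93 ± 0.31 (-0.57 without Ang II replicate 3), and Aurka, a mitotic kinase, -0.76 ± 0.27. Of 23 tested DNA replication genes 9 were lower at an unadjusted p under 0.05 (7.24% of all genes). The count was 0 without Ang II replicate 3 (3.09% of all genes) and 3 without EHP-101 replicate 1 (6.05%). It was 5 without EHP-101 replicate 2 (6.07%) or losartan replicate 1 (6.15%). Rrm2, a subunit of ribonucleotide reductase, had -0.68 ± 0.25 (EHP-101 -1.14, losartan -0.22), while Cdt1, which licenses replication origins, had -0.71 ± 0.23 with -0.71 and -0.71 by treatment and a difference of -0.0 with a 95% interval of -0.62 to 0.61. CCAAT boxes are common in promoters of genes of the G2 and M phases, and the 150 bases before the start of Top2a are shown for that reason, with CCAAT and ATTGG in capitals (RefSeq, GRCm38.p6, chr11:99024190-99024339, minus strand).
Top2a: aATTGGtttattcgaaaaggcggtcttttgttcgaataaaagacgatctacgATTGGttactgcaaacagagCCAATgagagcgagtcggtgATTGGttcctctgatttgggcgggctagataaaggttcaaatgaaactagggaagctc
This window held 4 matches. Over 250 bases, 23 of 28 windows of 26 cell division genes held CCAAT on either strand (82.1%), against 33.8% of all windows. TTTGAA, the core of the cell cycle homology region, was found on either strand in 10 of 28 (35.7%), against 16% of all windows and 0 of 12 class II windows. A CCAAT and a TTTGAA match can share end letters, and each motif was counted by itself.

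**Figure D3:**
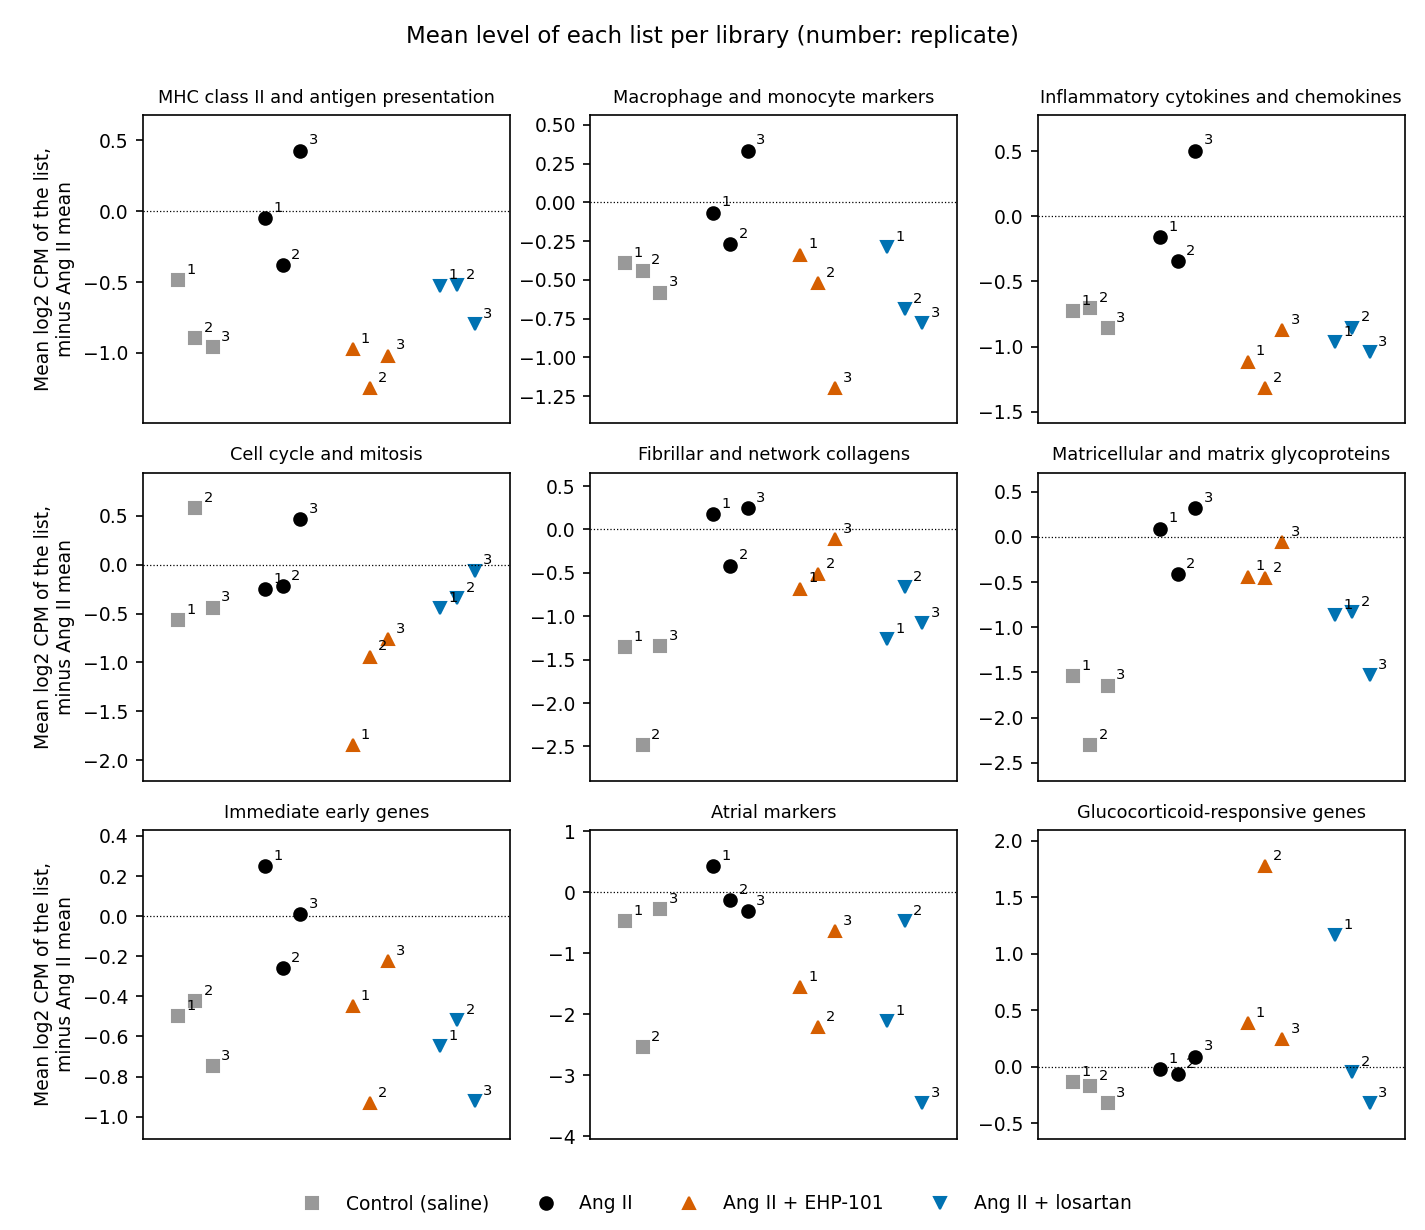
Mean log2 CPM of the tested genes of 9 lists in each library, minus the mean of the 3 Ang II libraries, with the replicate number beside each point. Ang II replicate 3 is the highest Ang II library for class II, macrophage, cytokine and cell cycle lists, EHP-101 libraries lie below the Ang II libraries for cell cycle genes while losartan libraries overlap them, and EHP-101 replicate 2 and losartan replicate 1 lie above the others for glucocorticoid-responsive genes.

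Matrix genes were lower in the pooled comparison, with the lower values in the losartan group. Of 19 collagens, 13 were lower at an unadjusted p under 0.05 (7.24% of all genes), with a median of -0.62, -0.43 with EHP-101 and -0.99 with losartan. EHP-101 alone passed the unadjusted threshold in 1, which is at the 5.11% of all genes, and losartan alone in 14, against 6.14%. Of 28 matricellular genes and matrix glycoproteins, 17 were lower pooled, 3 with EHP-101 and 22 with losartan, with medians of -0.62, -0.31 and -0.94. EHP-101 was higher than losartan at an unadjusted p under 0.05 in 6 of the collagens and 15 of the second list, against 3.07% of all genes. Both treatments passed by themselves in 1 and 3 (1.78% of all genes). The pooled counts were 4 and 9 without Ang II replicate 3 (3.09% of all genes), and 6 and 10 without Ang II replicate 1 (4.07%).

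Col3a1, the type III collagen chain of cardiac scar and interstitium, stood at 1508, 966 and 1884 CPM with Ang II alone, 538, 796 and 934 CPM with EHP-101 and 512, 835 and 591 CPM with losartan. Each treated library was below each Ang II library. The log2 fold change was -1.06 ± 0.26, 2.08-fold lower (edgeR adjusted p = 0.243), and EHP-101 minus losartan was 0.23 with a 95% interval of -0.44 to 0.89. Tnc, tenascin C, a matricellular protein of injured tissue, read 28.6, 15.3 and 31.6 CPM with Ang II alone, 14.7, 12.4 and 14.1 CPM with EHP-101 and 10.4, 8.82 and 5.44 CPM with losartan, also without overlap, and a log2 fold change of -1.25 ± 0.24 (edgeR adjusted p = 0.194, DESeq2 0.00448). That of Tnc was -0.88 with EHP-101 and -1.62 with losartan, a difference of 0.74 with a 95% interval of 0.095 to 1.39. By log2 fold change Col1a1, the main chain of type I collagen, had -0.87 ± 0.31, Col8a1, of the short-chain collagens, -0.62 ± 0.16, Col8a2 -1.32 ± 0.39 and Col11a1 -1.57 ± 0.43. Lum, lumican, a proteoglycan that binds collagen fibrils, had -0.75 ± 0.20 (-0.48 without Ang II replicate 3) and Eln, elastin, -0.95 ± 0.26.

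For several matrix genes the pooled value joined unlike values. Cilp, a matricellular protein of fibroblasts in pressure overload, stood at 404, 303 and 385 CPM with Ang II alone, 272, 207 and 351 CPM with EHP-101 and 160.1, 129 and 73 CPM with losartan. Losartan libraries were lowest, and EHP-101 libraries overlapped those given Ang II. Its pooled log2 fold change was -0.99 ± 0.23, and EHP-101 minus losartan was 1.2 with a 95% interval of 0.60 to 1.80 (unadjusted p = 8.62e-04, adjusted p = 0.506 in edgeR). DESeq2 called this difference, with an adjusted p of 0.0244. Postn, periostin, a marker of activated fibroblasts, read 789.8, 559.8 and 847 CPM with Ang II alone, 561, 647 and 741 CPM with EHP-101 and 630.4, 297 and 149 CPM with losartan, a pooled log2 fold change of -0.60 ± 0.31, with -0.17 for EHP-101 and -1.03 for losartan. The losartan values spread over a wide range and 1 of the 3 lay among the others. Cthrc1, which marks matrix-producing fibroblasts, had -0.34 with EHP-101 and -1.86 with losartan. Without losartan replicate 1 the pooled value of Postn was -0.94, and without losartan replicate 3 -0.42.

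Among genes that process collagen, 10 of 20 were lower pooled at an unadjusted p under 0.05, 1 with EHP-101 and 16 with losartan, against 7.24%, 5.11% and 6.14% of all genes. The pooled count was 3 without Ang II replicate 3 (3.09% of all genes) and 6 without Ang II replicate 1 (4.07%). Loxl1, a lysyl oxidase that crosslinks elastin, stood at 108, 83.4 and 103 CPM with Ang II alone, 66.5, 63.3 and 92.9 CPM with EHP-101 and 46.5, 61.2 and 50.7 CPM with losartan, a log2 fold change of -0.65 ± 0.15 (edgeR adjusted p = 0.22). EHP-101 replicate 3 overlapped Ang II. By treatment Loxl1 had -0.40 with EHP-101 and -0.89 with losartan, a difference of 0.49 with a 95% interval of 0.12 to 0.87. P4ha3, a prolyl hydroxylase of collagen, had a log2 fold change of -1.34 ± 0.40, and Pcolce, an enhancer of procollagen cleavage, -0.48 ± 0.14. Among 19 tested matrix proteases and inhibitors 11 were lower and 1 higher, against 7.24% and 1.94% of all genes (5 and 0 without Ang II replicate 3, 7 and 0 without Ang II replicate 1). Timp1, an inhibitor of matrix metalloproteinases, read 22.6, 18.1 and 56.4 CPM with Ang II alone, 16.4, 14.7 and 22.1 CPM with EHP-101 and 11.5, 9.49 and 5.06 CPM with losartan, a log2 fold change of -1.38 ± 0.35, and -0.71 without Ang II replicate 3. By treatment Timp1 had -0.87 with EHP-101 and -1.90 with losartan, a difference of 1.03 with a 95% interval of 0.10 to 1.96. Mmp14, a membrane-bound metalloproteinase, had -0.59 ± 0.16, with -0.51 and -0.67 by treatment and a difference of 0.16 with a 95% interval of -0.24 to 0.56. The 1 higher gene was Timp4, named after its values were seen, at 11.1, 17.4 and 11.7 CPM with Ang II alone, 22.2, 101 and 18.3 CPM with EHP-101 and 75.8, 20.2 and 14.5 CPM with losartan. It was high in EHP-101 replicate 2 and losartan replicate 1, and its log2 fold change of 1.64 was 1.03 without the former and 1.09 without the latter.

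Of 21 genes of TGF-beta signalling 5 were lower at an unadjusted p under 0.05 (7.24% of all genes), with a median of -0.16 (-0.24 without losartan replicate 2). The count was 3 without Ang II replicate 3 (3.09% of all genes) and 3 without Ang II replicate 1 (4.07%). Smad6, an inhibitory SMAD, stood at 18, 14.1 and 13.3 CPM with Ang II alone, 13.4, 14.3 and 12.8 CPM with EHP-101 and 6.83, 7.28 and 7.93 CPM with losartan. The losartan libraries lay below all others, and EHP-101 lay within or near the Ang II range. Its pooled log2 fold change was -0.60 ± 0.12, and EHP-101 minus losartan was 0.88 with a 95% interval of 0.55 to 1.2 (unadjusted p = 6.40e-05, adjusted p = 0.196 in edgeR). DESeq2 called this difference, with an adjusted p of 0.00131. Ltbp2, a latent TGF-beta binding protein, had -0.04 with EHP-101 and -1.76 with losartan, a difference of 1.72 with a 95% interval of 0.91 to 2.54. Tgfbi, a matrix protein induced by TGF-beta, had closer values, -0.60 and -0.65, with a difference of 0.045 with a 95% interval of -0.43 to 0.52. Tgfb1, the ligand, had -0.29 ± 0.14. Among 16 fibroblast markers 4 were lower by the same threshold (7.24% of all genes), and 2 without Ang II replicate 1 (4.07%). Their median of -0.16 was -0.017 without Ang II replicate 1 and -0.26 without Ang II replicate 2. The 4 included Igfbp4, which binds insulin-like growth factors (-0.56 ± 0.15), and Dpt, dermatopontin (-0.51 ± 0.15).

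All 18 atrial markers had a lower mean with treatment, 5 of them with an unadjusted p under 0.05 (7.24% of all genes). The median was -0.96, and -1.52 without losartan replicate 2. Their summed level was 4657 to 6765 CPM with Ang II, 3295 to 3736 with EHP-101, 1494 to 5309 with losartan and 2207 to 5059.6 in control hearts. By log2 fold change the 5 were Cpne5 (-2.10 ± 0.58), Bmp10, a growth factor of the atria (-6.11 ± 1.76), Nr2f1 (-0.63 ± 0.22, -0.38 without Ang II replicate 1) and Stard10 (-1.13 ± 0.47), together with Tbx5, named after its values were seen (-0.59 ± 0.27, and -0.39 without Ang II replicate 1). Bmp10 read 507, 339.7 and 223 CPM with Ang II alone, 1.65, 0.14 and 135 CPM with EHP-101 and 1.02, 0.711 and 0.0422 CPM with losartan. Apart from EHP-101 replicate 3, the treated libraries were near 0, and the control libraries read 177, 0.0538 and 10.5 CPM. Without EHP-101 replicate 3 the log2 fold change of Bmp10 was -8.92. The count of 5 ran from 2 without Ang II replicate 1 (4.07% of all genes) to 15 without losartan replicate 2 (7.98%). It was 3 without EHP-101 replicate 1 or 2 or losartan replicate 1 or 3 (6.05% to 6.15%).

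With a score of these markers as a covariate, the matrix counts were smaller: 2 of 19 collagens, 5 of 28 matricellular genes, 3 of 20 collagen processing genes and 3 of 19 proteases and inhibitors were lower at an unadjusted p under 0.05, against 4.32% of all genes lower and 3.01% higher. The leukocyte and cell division counts were 8 of 13 for class II, 17 of 28 for macrophages, 14 of 24 for cytokines and 22 of 30 for cell division. The median for collagens was -0.24, and for class II genes -0.90. Of the smaller lists, 6 of 20 interferon-stimulated genes, 4 of 19 immediate early genes, 2 of 21 TGF-beta genes, 1 of 16 fibroblast markers and 2 of 7 mast cell markers were lower. Among single genes the log2 fold change was -0.27 for Col1a1, -0.65 for Col3a1, -0.53 for Cilp, -0.64 for Mx1, -1.21 for Fos, 0.76 for Timp4 and 0.63 for Fkbp5. It changed sign for Nppa (-0.79 to 0.29) and Tbx5 (0.081). Both are members of the score, so the covariate holds part of their own values and these changes are no separate result. The score itself was 1.58, 1.02 and 0.83 in the Ang II libraries, and at most 0.67 in the treated libraries. It thus differed between the groups compared, so in this fit atrial content and treatment cannot be told apart, for any of these lists. The part of atrial tissue in these results was not tested beyond this fit.

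Fewer genes were higher with both treatments. Ogdhl, an isoform of the oxoglutarate dehydrogenase subunit (chr14:32322019-32348151), stood at 94.4, 141 and 98.1 CPM with Ang II alone, 224, 214 and 142 CPM with EHP-101 and 183, 151 and 186 CPM with losartan. Ang II replicate 2 came close to EHP-101 replicate 3, without overlap. Its log2 fold change was 0.72 ± 0.17, 1.65-fold higher, with an edgeR adjusted p of 0.225 and a DESeq2 adjusted p of 0.0164. Tmem179, a membrane protein (chr12:112500189-112516747), read 2.62, 2.58 and 2.21 CPM with Ang II alone, 3.76, 4.77 and 3.81 CPM with EHP-101 and 5.76, 5.52 and 3.50 CPM with losartan, a log2 fold change of 0.87 ± 0.21. The other 10 chosen by the same rule had log2 fold changes of 0.34 to 1.35, with edgeR adjusted p from 0.302 to 0.383. By log2 fold change they included P2ry1, a purinergic receptor (0.47 ± 0.13), Il15ra, the IL15 receptor alpha chain (0.40 ± 0.12), Myzap, a protein of the cardiac intercalated disc (0.42 ± 0.13), Cdk18, a cyclin-dependent kinase (0.34 ± 0.095), Spaar (0.58 ± 0.17), and the low-count genes Plscr5 (0.86 ± 0.26), Fam228b (0.64 ± 0.20) and Vwa3a (0.70 ± 0.22). mt-Tc, a mitochondrial tRNA, had 0.63 ± 0.18. For these 12 the interval of EHP-101 minus losartan held 0 in each case.

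All 31 genes of fatty acid uptake and oxidation had a higher mean with treatment, 4 with an unadjusted p under 0.05 (1.94% of all genes), and a median of 0.28, which was 0.42 without Ang II replicate 2 and 0.11 with the atrial covariate, where 3 were higher. Lpl, lipoprotein lipase, stood at 4636, 5133 and 4224 CPM with Ang II alone, 6447, 7026 and 5449.7 CPM with EHP-101 and 6528, 5378 and 6060.3 CPM with losartan, a log2 fold change of 0.40 ± 0.15. By log2 fold change Acadm, a medium-chain acyl-CoA dehydrogenase, had 0.38 ± 0.14, Decr1, a reductase of unsaturated fatty acids, 0.36 ± 0.14 and Hadh, a dehydrogenase of the same pathway, 0.34 ± 0.15 (0.52 without Ang II replicate 2). The count was 0 without Ang II replicate 3 or 1, 2 without EHP-101 replicate 1, 9 without EHP-101 replicate 3 or losartan replicate 2, and 17 without control replicate 2 or Ang II replicate 2. In those last 2 settings 5.02% and 2.52% of all genes were higher. Of 38 nuclear subunits of oxidative phosphorylation, 1 had a lower mean, 0 passed the unadjusted threshold, and the median was 0.17. It was 0.033 when libraries were scaled by size alone, which moved the median of all genes to -0.13, and -0.14 with the atrial covariate.

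Among 13 mitochondrially encoded genes 2 were higher at an unadjusted p under 0.05 (1.94% of all genes). By log2 fold change they were mt-Nd5 (0.47 ± 0.17) and mt-Nd6 (0.47 ± 0.17), subunits of complex I. Their genes lie on opposite strands and share some bases, and unstranded reads over those bases cannot be assigned between them. The median was 0.30, and 0.07 with the atrial covariate. The count was 0 without Ang II replicate 3, 4 without EHP-101 replicate 1, 6 without control replicate 2 and 0 with the atrial covariate. Of 19 cardiomyocyte markers 2 were higher by the same threshold (1.94% of all genes). They were Tnnt2, cardiac troponin T (0.34 ± 0.13), and Tcap, telethonin (0.54 ± 0.24), with a median of 0.18. This count was 0 without Ang II replicate 3 or with the atrial covariate, 1 without Ang II replicate 1, EHP-101 replicate 2 or losartan replicate 1, 4 without Ang II replicate 2 and 5 without control replicate 2. Over all genes the higher share was 2.52% without Ang II replicate 2 and 5.02% without control replicate 2.

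Clock genes named here lay on either side of Ang II. Period genes and the PAR-domain factor Tef had higher means, and Npas2 and Arntl, of the activating arm of the clock, lower ones. At an unadjusted p under 0.05, 5 of 18 were higher and 2 lower, against 1.94% and 7.24% of all genes, so the lower count is near the background. DESeq2 called 2 higher (0.0315% of all genes). Tef, a PAR-domain factor, stood at 81.2, 94.6 and 78.7 CPM with Ang II alone, 179.9, 165 and 161 CPM with EHP-101 and 169.8, 127 and 93.2 CPM with losartan, with 1 losartan library just below the highest Ang II library and a log2 fold change of 0.80 ± 0.22. Per2 read 6.95, 6.40 and 6.22 CPM with Ang II alone, 30.2, 27.6 and 20.6 CPM with EHP-101 and 15.2, 10.5 and 5.19 CPM with losartan. EHP-101 libraries were all far above Ang II, while losartan ran from below Ang II to well above it. The log2 fold changes were 1.33 ± 0.40 pooled and 2.0 and 0.66 singly, a difference of 1.34 with a 95% interval of 0.40 to 2.29. Ciart, a clock repressor, had a log2 fold change of 1.35 ± 0.39 and Per1 1.29 ± 0.46. Npas2 had -0.63 ± 0.20. Nr1d2 (0.49 ± 0.20) and Arntl (-0.69 ± 0.26) were named after their values were seen. The counts of higher and lower were 3 and 2 without Ang II replicate 3, 3 and 1 without Ang II replicate 1, 9 and 2 without control replicate 2, 8 and 2 without control replicate 3, and 10 and 4 with the atrial covariate. The labels give no hour of death, so time of day and group cannot be told apart.

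Glucocorticoid-responsive genes were high in some treated libraries. Of 16, 4 were higher at an unadjusted p under 0.05 (1.94% of all genes), with a median of 0.78. The median was 0.37 without losartan replicate 1, 0.44 without EHP-101 replicate 2 and 0.31 with the atrial covariate, where 1 of 16 was higher. Fkbp5, a co-chaperone of the glucocorticoid receptor and one of its targets, stood at 19.1, 19.6 and 19.9 CPM with Ang II alone, 36, 239 and 27.2 CPM with EHP-101 and 63.6, 18.9 and 18.7 CPM with losartan. EHP-101 replicate 2 was far above the rest and losartan replicate 1 next, while the other losartan libraries lay at the Ang II level. Its log2 fold change was 1.57 ± 0.70, 0.74 without EHP-101 replicate 2 and 1.15 without losartan replicate 1. Zbtb16, a zinc finger factor, had 1.29 (0.87 without EHP-101 replicate 2), and Map3k6, a kinase, 1.22 (0.57). The fourth was Per1. The count was 7 without EHP-101 replicate 1 or 3 or losartan replicate 3, 2 without any 1 control or losartan replicate 1, 1 without Ang II replicate 2 or 3, and 0 without Ang II replicate 1.

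The genes on which the 2 agents act did not pass the adjusted threshold in the main edgeR fit, though Agtr1a did in an alternative fit. Agtr1a, the AT1a receptor, stood at 24, 31.9 and 22.6 CPM with Ang II alone, 34.5, 30.3 and 28.5 CPM with EHP-101 and 32.5, 31.5 and 30.4 CPM with losartan, against 39.2, 39.5 and 40.0 CPM in control hearts. Its log2 fold change was 0.26 ± 0.12 (edgeR adjusted p = 0.529) and EHP-101 minus losartan was -0.018 with a 95% interval of -0.30 to 0.27. The pooled value was 0.43 without Ang II replicate 2 and 0.16 without Ang II replicate 3. Among 11 tested genes of the renin-angiotensin system it was the 1 with an unadjusted p under 0.05, against 9.19% of all genes. Pparg had a log2 fold change of 0.30 ± 0.19, 0.17 without EHP-101 replicate 2, and Cnr2, the CB2 receptor, -0.32 ± 0.27, -0.49 without that library, at 0.569 to 1.31 CPM. Of 9 tested genes of the cannabinoid system 0 had a lower and 0 a higher mean at this unadjusted threshold. Of 19 PPAR receptors and targets 2 were higher (1.94% of all genes), Lpl and Vldlr (0.28 ± 0.13). That count was 0 without Ang II replicate 1 or 3, 1 without control replicate 1 or 3, EHP-101 replicate 1 or losartan replicate 1, 4 without losartan replicate 2 and 5 without losartan replicate 3.

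Several genes known for the response to Ang II are given as values, none with an edgeR adjusted p under 0.05. Nppb, B-type natriuretic peptide, read 370.4, 354 and 424 CPM with Ang II alone, 322, 595 and 465 CPM with EHP-101 and 427, 277 and 214 CPM with losartan, a log2 fold change of -0.027 ± 0.59. Ccn2, a matricellular target of TGF-beta, read 224, 191 and 245 CPM with Ang II alone, 276, 323 and 296 CPM with EHP-101 and 290.5, 167 and 72.4 CPM with losartan, a pooled 0.063 ± 0.30 made of 0.44 with EHP-101 and -0.31 with losartan. Nppa, atrial natriuretic peptide, had a log2 fold change of -0.79 ± 0.57, -1.44 without losartan replicate 2 and 0.29 with the atrial covariate, of which it is a part. Acta2, smooth muscle actin, had -0.58 ± 0.25, and -0.34 without Ang II replicate 3. Myh7, the beta myosin heavy chain, read 838, 499 and 601 CPM with Ang II alone, 1721, 1128 and 1049.7 CPM with EHP-101 and 876, 595 and 302 CPM with losartan. All 3 EHP-101 libraries were above all Ang II libraries, and losartan libraries spread from below to just above the Ang II range. The pooled 0.44 ± 0.37 joined 1.01 and -0.13, a difference of 1.14 with a 95% interval of 0.22 to 2.05 (edgeR adjusted p = 0.744). The pooled value was 0.68 without Ang II replicate 1, 0.29 without Ang II replicate 2, 0.24 without losartan replicate 1 and 1.18 with the atrial covariate. Myh7 shares exon bases with the antisense RNA Mhrt, and these reads cannot be told apart.

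The test of EHP-101 against losartan asks where a pooled value joins unlike effects. It had 0 genes (0%) at an adjusted p under 0.05 in edgeR, with a smallest adjusted p of 0.0748, and 456 lower (2.97%) and 471 higher (3.07%) with EHP-101 at an unadjusted p under 0.05. DESeq2 called 2 lower (0.00826%) and 23 higher (0.0949%). In 27 genes (0.176%) all EHP-101 libraries lay above and all losartan libraries below the 3 Ang II libraries, and in 17 (0.111%) the reverse. Among the 11 lower genes shown above, the smallest p for a difference were those of Tmem45a, a membrane protein, Socs3 and Cd74. Tmem45a read 12.2, 10.7 and 17.1 CPM with Ang II alone, 8.92, 9.21 and 8.97 CPM with EHP-101 and 4.74, 6.11 and 4.85 CPM with losartan, so both treatments lay below Ang II and losartan lowest, with -0.95 ± 0.16 pooled and a difference of 0.79 with a 95% interval of 0.35 to 1.22 (unadjusted p = 0.00187, adjusted p = 0.59 in edgeR). Tppp3, a tubulin-binding protein, had -0.53 with EHP-101 and -0.72 with losartan, a difference of 0.19 with a 95% interval of -0.091 to 0.47. An interval that holds 0 does not show that the treatments act alike.

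**Figure D4:**
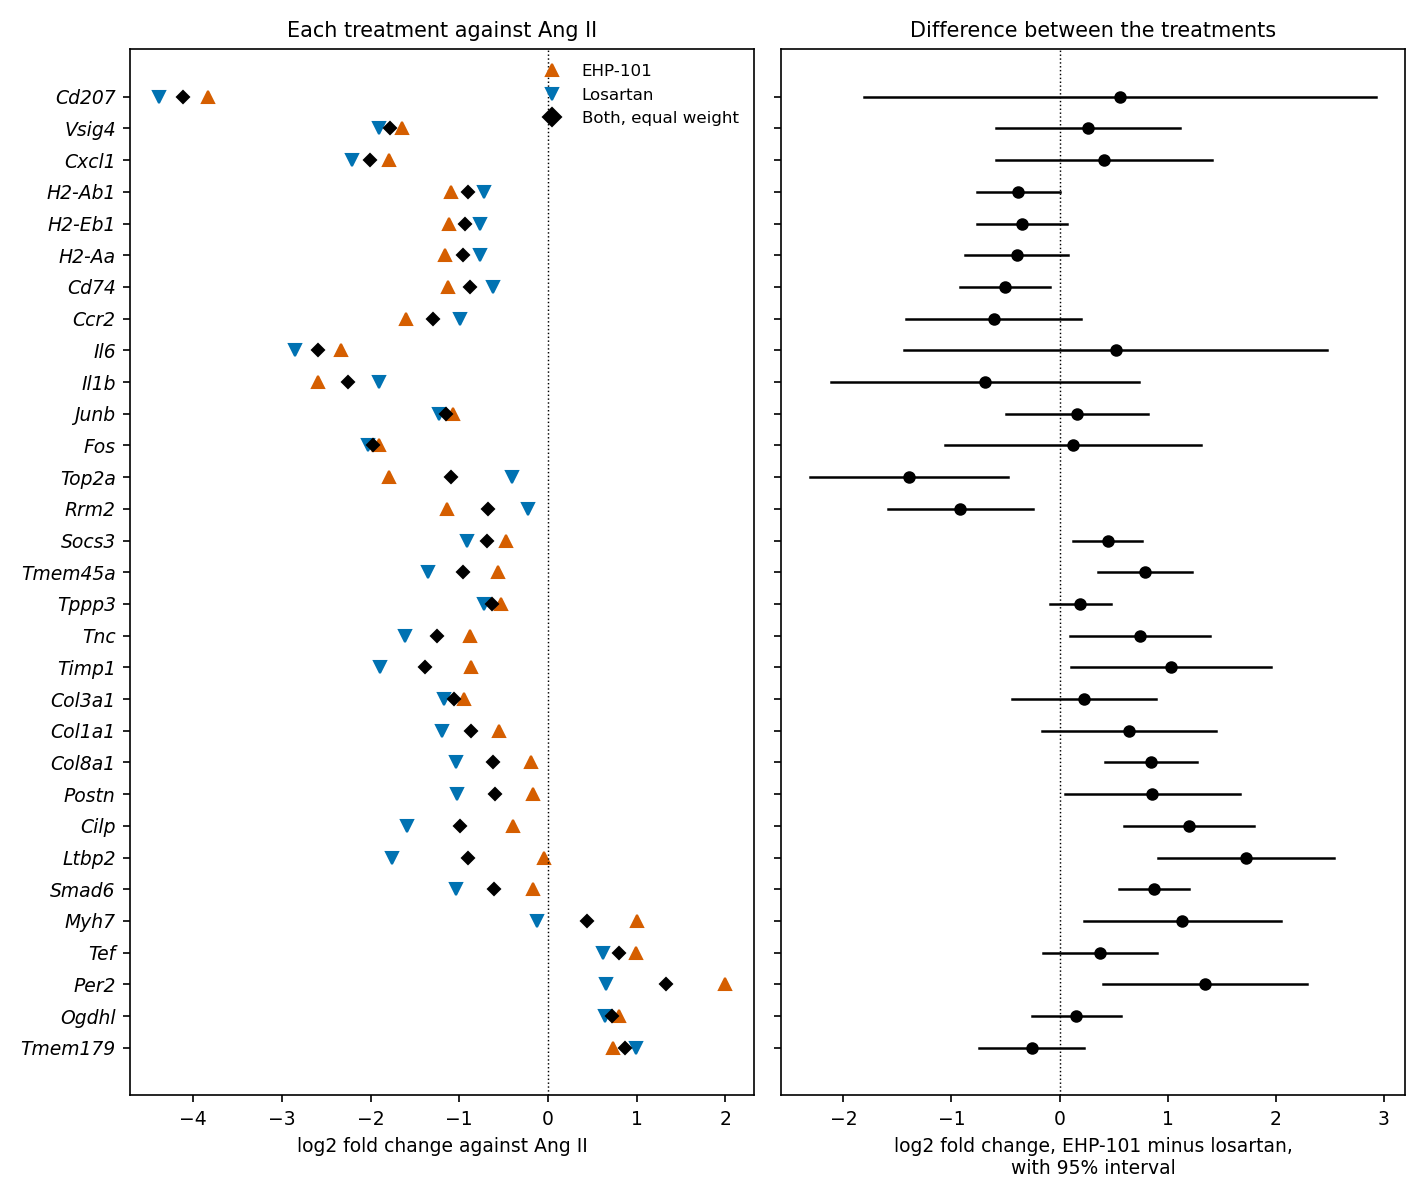
Left, log2 fold change against Ang II of 31 named genes for EHP-101, losartan and both with equal weight. Right, EHP-101 minus losartan with its 95% interval from the edgeR fit. Class II genes and Top2a lie to the left of 0 on the right-hand side, and Cilp, Ltbp2, Smad6 and Col8a1 to the right, and the intervals of Cd74, Top2a and those 4 do not hold 0. Other intervals to the right that do not hold 0 include those of Tnc, Timp1, Socs3, Tmem45a, Myh7 and Per2.

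Of the 106 genes with recomputed values in the text, 26 of the 101 chosen by rule share exon bases with another annotated gene, Cd74, Junb, Tnc, Col3a1, Top2a and Kif20a among them. Without strand information, reads over those bases may belong to either gene.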

How the data were processed

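Heart RNA from 12 samples in 4 groups of 3 was sequenced. Per the labels' protocols, 300 ng of RNA went through oligo-dT capture and the TruSeq RNA Library Prep Kit v2, which does not mark strand, and was read as 50 bp single ends. Per the submitters' processing notes, the authors' tools included fastp 0.20.0, HISAT2 2.1.0, featureCounts 2.0.0 and edgeR 3.30.0 with the genome build GRCm38. The authors deposited 1 table of raw read counts per gene, with 47729 genes, of which 47224 had a symbol. All columns were mapped to samples by their titles.

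edgeR 4.0.16 (R 4.3.3) filtered the counts by group (filterByExpr), which left 15336 genes, scaled them by TMM and fitted a quasi-likelihood model with 4 group means and 8 residual degrees of freedom (common biological coefficient of variation 0.189). The pooled contrast weights each treatment equally. The Benjamini-Hochberg adjustment ran over the 15336 genes, a call is an adjusted p under 0.05, and unadjusted counts are descriptions. Values after ± are standard errors of log2 fold changes, and log2 CPM used a prior count of 2. The quasi-likelihood steps were tested on simulated data. The total of 22155418 to 24040516 reads per library sets the counting error, and 3 samples a group limit the precision further.

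The genes named were chosen by a rule with 4 parts. The first took up to 12 lower and 12 higher genes with all 6 treated libraries on 1 side of the Ang II libraries, a mean of at least 1 CPM, and, since none was called, the smallest unadjusted p. The second took up to 4 genes with the smallest pooled p in each list. The third took set genes of the response to Ang II and the drug targets, and the fourth the lower or higher genes with the smallest p for a difference between treatments. Timp4, Gm4076, Nr1d2, Arntl and Tbx5 were named after their values were seen. A gene chosen by the rule is not reported here. The comparison, the 45 gene lists (from textbook knowledge) and the rule were chosen with earlier results of these data known. Gene positions are those of GRCm38, and promoter windows come from RefSeq.

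Replicate numbers did not pair samples: correlations of deviations between same-numbered libraries ran from -0.244 to 0.0665 among the 9 infused libraries and from -0.327 to 0.330 in pairs with a control library, so the fit has no block. No 2 replicates agreed within sampling noise. Alternatives were DESeq2 1.42.0, limma 3.58.1 (voom, with and without quality weights), other scalings, filters and pooling, a replicate block, an atrial covariate and each library left out. Counts of list members with a library left out or with the covariate were added after seeing the data.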

Additional observations from a re-analysis of the deposited data

How the results depend on the processing

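At an adjusted p under 0.05, edgeR's count of 0 for the pooled comparison, EHP-101, losartan and EHP-101 against losartan became 86, 60, 108 and 25 with DESeq2 and 23, 10, 30 and 3 with no filter on low counts. limma-voom with quality weights, which estimates a weight for each library, called 655 genes pooled (552 lower, 103 higher), 598 for losartan and 1 for EHP-101 against losartan. With only the 9 libraries of the infused groups there was 1 gene pooled and 1 for losartan. Leaving out 1 library at a time gave 0 to 1 pooled (1 without control replicate 1), 0 for EHP-101, 0 to 3 for losartan and 0 to 2 for EHP-101 against losartan (3 and 2 without control replicate 2). The cause was not tested. The replicate block gave 0 calls in each comparison. Since 0 of 9 libraries correlated best with their own number, the numbers were not taken to pair samples.

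The split of unadjusted counts, 1111 lower and 298 higher, became 2042 and 64 with library size alone, where the median over all tested genes was -0.13 on the log2 scale. It was 2179 and 1272 with quality weights, 1317 and 643 with the 9 libraries, 662 and 461 with the atrial covariate and 623 and 174 at a mean of at least 5 CPM.

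The pooled values of 4 genes changed sign. The log2 fold change of Ccn2 was -0.087 with library size alone, -0.036 with limma-voom, -0.17 with quality weights, -0.028 without Ang II replicate 2, -0.22 without losartan replicate 1 and at most 0.25, without losartan replicate 3. That of Nppb was -0.18 without losartan replicate 1, 0.0024 with the 6 treated libraries as 1 group, 0.051 without Ang II replicate 3, 0.075 without EHP-101 replicate 1, 0.0065 without losartan replicate 2 and 0.074 without losartan replicate 3. With the atrial covariate Nppa was 0.29 (from -0.79) and Tbx5 0.081 (from -0.59), and among others the list medians of fibroblast markers, atrial markers and nuclear subunits of oxidative phosphorylation also changed sign, to 0.15, 0.17 and -0.14. The atrial list, with Nppa and Tbx5 among its members, makes up the covariate. Changes of its own values are therefore no separate result. Lists with no gene at a mean of at least 5 CPM have no median there.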

Other observations

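Several cell types and housekeeping groups showed values closer to those of all tested genes. For pericyte markers the median pooled log2 fold change was -0.079 and for endothelial markers -0.080, and 0 of 10 and 0 of 16 had an unadjusted p under 0.05 in edgeR, against 9.19% of all genes. Cytosolic ribosomal proteins had a median of -0.030 with 0 of 36, and heat shock proteins and cytosolic chaperones 0.043 with 0 of 16. Neutrophil markers were sparse: 6 of 12 were tested, 0 of them had an unadjusted p under 0.05, and the median was -0.32. Epicardial and mesothelial markers lay further from all genes, with a median of -0.70, -0.94 for EHP-101 and -0.53 for losartan. With a library left out this pooled median ran from -1.56 to -0.47. Of 10, 1 was lower at an unadjusted p under 0.05 (7.24% of all genes). Their summed level overlapped between groups: 38.9 to 51.5 CPM with Ang II, 13.0 to 43.4 with EHP-101 and 15.2 to 66.1 with losartan. The list of cardiac stress and fetal genes had a pooled median of 0.0027, which joined 0.26 with EHP-101 and -0.29 with losartan.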
